A study of Homo sapiens with 12 samples.

Results

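Colon cancer stem cell markers were followed at the mRNA level as 8 genes: ALDH1A1, ALDH1A3, PROM1, CD44, CD24, ALCAM, SOX9 and LRIG1. They were chosen by symbol, and 8 of 8 were found in both deposited tables, among 25540 genes listed for LS411N-BR and 25673 for LS411N. LS411N is an established human colon cancer line, and LS411N-BR is its derivative that resists BRAF inhibitors and was grown in 4 µM of such an inhibitor, which the labels do not name. All cells of both lines, controls included, carried a MUC1 short hairpin RNA under a doxycycline-inducible promoter, and resistance to puromycin. The 4 groups were LS411N-BR with 500 ng/ml doxycycline (DOX), LS411N-BR without DOX, LS411N with DOX, and LS411N without DOX. Each group held 3 RNA-seq libraries from triplicate cultures, 12 libraries in all, and 0.1% DMSO was the vehicle of the groups without DOX. The labels say neither whether LS411N-BR is a single clone nor how far apart the triplicate cultures were grown. The p-values therefore measure the spread between these libraries only. DOX and the induced hairpin were always present together, so their effects cannot be told apart, and BRAF inhibitor in the medium goes with the line in the same way.

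Stem cell markers of colon cancer are genes used to pick out cells that can start a tumour again. ALDH1A1 and ALDH1A3 encode cytosolic dehydrogenases that turn retinaldehyde into retinoic acid, and this enzyme activity is commonly used to sort such cells. CD44, CD24, PROM1 (CD133) and ALCAM (CD166) encode cell surface proteins used with antibodies. SOX9 encodes a transcription factor of the crypt base that lies downstream of WNT signalling, and LRIG1 encodes a membrane protein that restrains ERBB receptors and marks stem cells of the mouse intestine. In bulk RNA, fewer cells that express a marker and less of its RNA per cell cannot be told apart.

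The values are TPM, the share of each gene among all transcripts after division by transcript length. MUC1, the target of the hairpin, had 0.699, 0.388 and 0.440 TPM in LS411N-BR with DOX, against 3.69, 3.94 and 4.27 TPM without it. In LS411N it had 0.986, 0.814 and 0.967 TPM with DOX, against 4.64, 6.10 and 4.54 TPM without it. Every library with DOX lay below every library without it, and the mean fell by 87.2% in LS411N-BR and fell by 81.9% in LS411N. Between 15116 and 17999 genes had a value above 0 per library, and short RNA genes held 47.2 to 58.1% of the TPM. Replicate 3 of LS411N without DOX stood apart: short RNA took 47.2% of its TPM, and the SD of its log2 differences to the other replicates of its group was 0.242 and 0.245, against 0.0915 to 0.124 in the other 10 replicate pairs. In TPM as deposited it was the highest of its group for all stem cell markers but SOX9, so results in LS411N are given with and without it. Markers of colon epithelium were at 1 TPM or more for 8 of 9 genes in every group, with CDX1 the exception, and their sum was 3970 to 4169 TPM with DOX and 2673 to 2852 TPM without it in LS411N-BR, and 2996 to 3462 and 2107 to 2953 TPM in LS411N. Of 10 fibroblast and endothelial markers, 1 reached 1 TPM in the LS411N-BR groups and 0 in the LS411N groups. Of 10 immune markers, CD68 and LYZ did, with sums of 118 to 122 TPM with DOX and 182 to 190 TPM without it in LS411N-BR, and of 1391 to 1431 and 2276 to 3087 TPM in LS411N, while PTPRC, which defines leukocytes, averaged at most 0.00114 TPM in a group. The part of these marker levels in the results below was not tested.

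With DOX, ALDH1A1 and ALDH1A3 rose and SOX9 and LRIG1 fell in both lines, while the 4 surface markers had smaller log2 fold changes in TPM as deposited. In LS411N-BR, 5 of the 8 markers were called higher and 2 lower, where 56.1% of all 11322 genes tested were called higher and 11.1% lower (67.2% in all). In LS411N, 2 were called higher and 2 lower, where 9.75% of 11281 genes were higher and 3.43% lower (13.2% in all). A call is a Benjamini-Hochberg adjusted p under 0.05 over all genes tested with limma on log2(TPM + 1). The median log2 fold change of all genes was 0.18 in LS411N-BR, so most genes sat above 0 there. With median-of-ratios rescaling, which brings that median to 0, 3 markers were higher and 3 lower in LS411N-BR, where 32.3 and 32.2% of all genes were called (64.5% in all), and 3 were higher and 4 lower in LS411N, where 18.8 and 16% were (34.8% in all). The log2 fold change of the surface marker PROM1 in LS411N (-0.49) was then larger in size than that of ALDH1A1 (0.38). With replicate 3 of LS411N without DOX left out, 3 markers were higher and 3 lower there, where 53 and 6.32% of all genes were (59.3% in all). By ranges alone, all libraries with DOX lay above those without for 4 markers and below them for 2 in LS411N-BR, where 56% of all genes were above and 12.1% below. In LS411N they lay above for 3 markers and below for 3, where 19.3 and 9.61% of all genes did. The median in LS411N was 0.08 as deposited and 0.01 after rescaling. All 8 markers passed the filter of 1 TPM in 3 libraries in both lines.

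**Figure D1:**
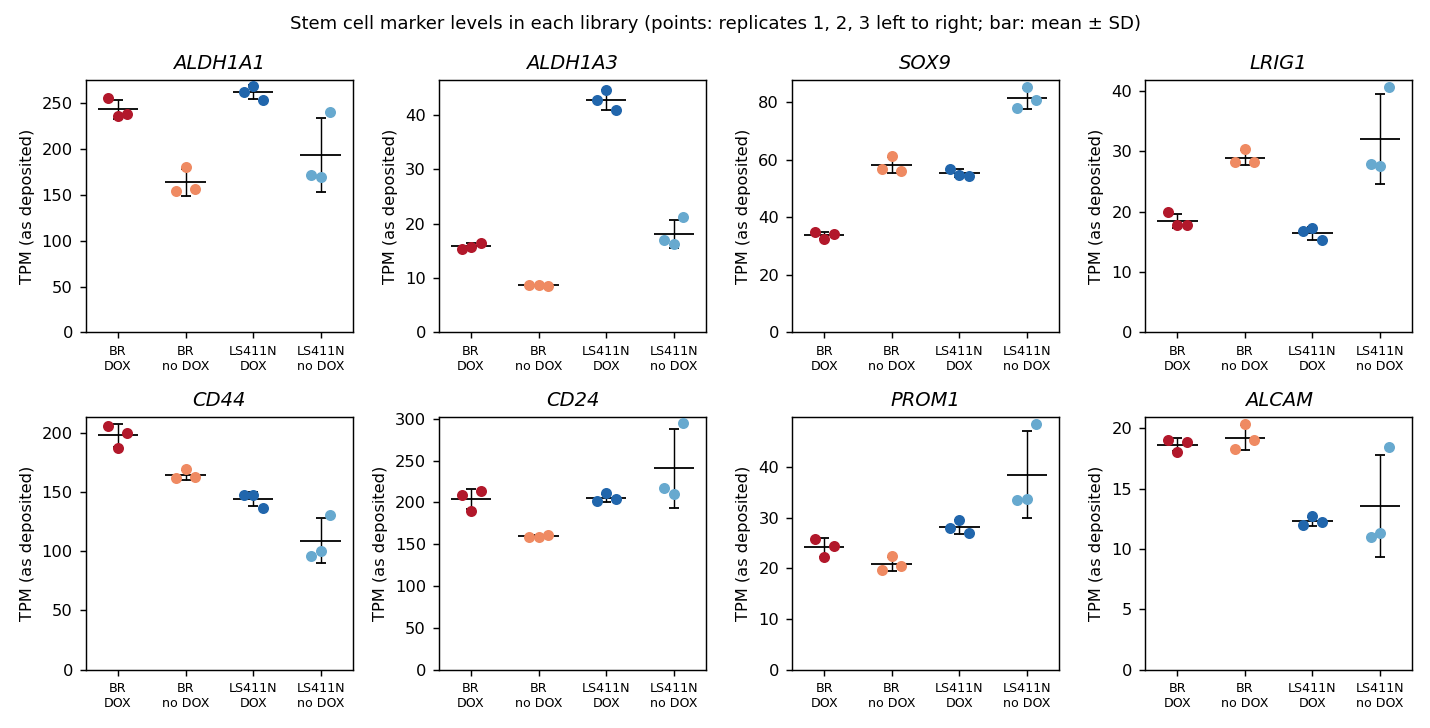
TPM as deposited of the 8 stem cell markers in each of the 12 libraries, with LS411N-BR (BR) left of LS411N and DOX left of no DOX in each line. Points are replicates 1 to 3 from left to right, and the bar with whiskers is the mean ± SD of 3 libraries. The DOX libraries lie above the others for ALDH1A1 and ALDH1A3 and below them for SOX9 and LRIG1 in both lines, and replicate 3 of LS411N without DOX is the highest of its group in 7 of the 8 panels.

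ALDH1A1 and ALDH1A3 were the markers that rose most, and ALDH1A3 led in both lines. ALDH1A3 lies on the plus strand at chr15:100877714-100916626 and ALDH1A1 on the minus strand at chr9:72900662-73080442 (GRCh38, GENCODE 29). Stretches of 30 bases just before their RefSeq transcription starts are shown because these are the markers that rose together in both lines. The capitals mark the pentamers CCAAT and ATAAA (coordinates on GRCh38.p14, strand of the gene, 5′ to 3′).
ALDH1A1 CCAAT, chr9:72953110-72953139, minus strand: gagtttgttcatCCAATcgtatccgagtat
ALDH1A3 CCAAT, chr15:100879748-100879777, plus strand: ccggtcccgcagCCAATtaggcggccccct
ALDH1A1 ATAAA, chr9:72953068-72953097, minus strand: tagcccgtgcagATAAAaaaggaacaaata
ALDH1A3 ATAAA, chr15:100879790-100879819, plus strand: gtggggcgctgcATAAAgcggcggggagct
CCAAT begins 74 bases before the start in ALDH1A1 and 71 bases before it in ALDH1A3, and ATAAA begins 32 and 29 bases before it. ALDH1A1 holds further copies of ATAAA, which begin 52 and 17 bases before its start. Windows of 250 bases before a start held CCAAT on either strand in 32.0% of 35116 RefSeq entries, ATAAA in 32.7%, and both in 11.7%. The windows differed otherwise: that of ALDH1A1 had 38.4% G and C and held 0 copies of GGGCGG, and that of ALDH1A3 had 82.4% and held 6. All 250 bases of the ALDH1A3 window also lie in annotated exons of other transcripts, as do those of PROM1 and CD44 and 142 bases of the LRIG1 window. The RefSeq starts used for ALDH1A1 and ALDH1A3 lie inside the gene spans given above, not at their outer ends. Of the other markers, 5 had RefSeq entries. Their windows held ATAAA in CD44, 30 bases before the start, and CCAAT in PROM1, at 53 bases, and in LRIG1, which fell with DOX, at 103 and 64 bases. These letters were thus not confined to the markers that rose. These matches describe letters and say nothing of a factor at work.

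ALDH1A3 had 15.4, 15.7 and 16.5 TPM in LS411N-BR with DOX, against 8.63, 8.73 and 8.51 TPM without it. Its LS411N values were 42.7, 44.7 and 41.0 TPM with DOX, against 17.0, 16.3 and 21.1 TPM without it. The groups did not overlap in either line, and the means with DOX were 1.84-fold higher in LS411N-BR and 2.36-fold higher in LS411N. The log2 fold change was 0.81 ± 0.07 (SE, adjusted p = 1e-31) in LS411N-BR, above that of 97.1% of the genes tested, and 1.20 ± 0.14 (adjusted p = 9.2e-09) in LS411N, above 99.5% of them. After rescaling these were 0.62 and 1.13. ALDH1A3 was called in all 16 alternative settings in LS411N-BR and all 17 in LS411N.

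ALDH1A1 was the most abundant marker in LS411N-BR and LS411N with DOX, above 97.6 and 97.7% of the genes at 1 TPM or more. It had 255, 236 and 238 TPM in LS411N-BR with DOX, against 154, 180 and 157 TPM without it. The values in LS411N were 262, 269 and 254 TPM with DOX, against 171, 170 and 240 TPM without it. The groups did not overlap in either line, but in LS411N replicate 3 without DOX came close to the DOX libraries. The means were 1.49-fold higher with DOX in LS411N-BR (log2 fold change 0.57 ± 0.06 SE, adjusted p = 1.8e-19) and 1.35-fold higher in LS411N (0.45 ± 0.15 SE, adjusted p = 0.036). In LS411N the call was lost without any single library other than replicate 3 of the group without DOX (adjusted p = 0.15 to 0.24). It stood without that replicate (0.62, adjusted p = 1e-05) and after rescaling (0.38, adjusted p = 0.001).

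ALDH1A3 rose more than ALDH1A1, so its share of the summed TPM of both genes grew. That share was 5.70, 6.23 and 6.49% in LS411N-BR with DOX, against 5.32, 4.62 and 5.15% without it. In LS411N it was 14, 14.2 and 13.9% with DOX, against 9.02, 8.77 and 8.10% without it. The libraries with DOX were above those without in both lines. The log2 ratio of ALDH1A3 TPM + 1 to ALDH1A1 TPM + 1 was higher by 0.24 with DOX in LS411N-BR and by 0.75 in LS411N. Without the added 1 TPM, the log2 ratio of the plain TPM was higher by 0.31 in LS411N-BR and by 0.79 in LS411N. An exact two-sided permutation test gave p = 0.1 in each line for both ratios, the smallest that 3 against 3 libraries allow.

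**Figure D2:**
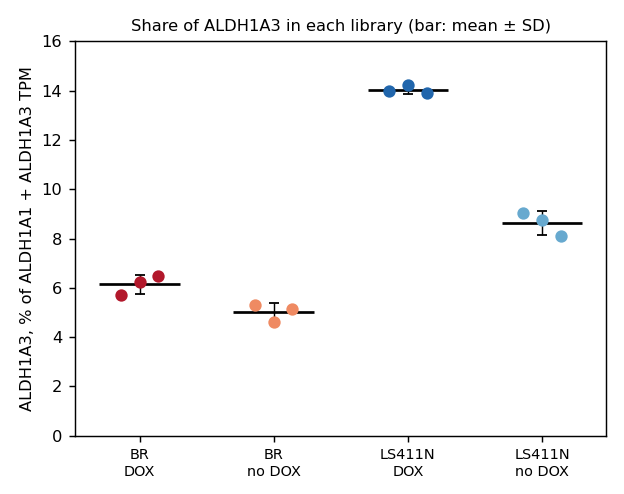
Share of ALDH1A3 in the summed TPM of ALDH1A1 and ALDH1A3, in percent, per library, with the mean ± SD of 3 libraries as bar and whiskers and DOX left of no DOX in each line. The LS411N libraries with DOX lie between 13.9 and 14.2% and those without between 8.10 and 9.02%, and the LS411N-BR libraries lie between 5.70 and 6.49% with DOX and between 4.62 and 5.32% without it.

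Of the genes that supply, bind or answer to retinoids, 8 of 12 tested rose in LS411N-BR and 1 fell, with a median log2 fold change of 0.35, where 56.1% of all genes rose and 11.1% fell. Of these 8, DHRS9 and ADH1C reached 1 TPM in libraries with DOX only and so passed the filter through the group in which they were high, and without them 6 of 10 rose and 1 fell. After rescaling 7 of 12 rose and 2 fell, where 32.3 and 32.2% of all genes did. In LS411N, 3 of 10 rose and 1 fell, with a median of 0.16, where 9.75% of all genes rose and 3.43% fell. Rescaling gave 4 and 0 there, where 18.8 and 16% of all genes rose and fell. Leaving out replicate 3 of LS411N without DOX made 53% of all genes higher and 6.32% lower, against 6 and 0 of this list, while leaving out each other library gave 3 rises. DHRS9, a dehydrogenase that makes retinaldehyde, averaged 2.15 ± 0.294 TPM in LS411N-BR with DOX and 0.260 ± 0.0503 TPM without it (SD, n = 3 each). RBP2, a retinol-binding protein of absorptive cells, averaged 9.91 ± 1.49 TPM with DOX and 4.50 ± 0.647 TPM without it in LS411N-BR, and 3.32 ± 0.496 and 1.01 ± 0.524 TPM in LS411N, where it reached 1 TPM in 3 libraries with DOX and 1 without. DHRS3, which turns retinaldehyde back into retinol, rose in LS411N to 19.5 ± 1.79 TPM with DOX, against 11.7 ± 1.33 TPM without it. RARRES1 fell in LS411N-BR (log2 fold change -0.38, adjusted p = 5.4e-08), and RARRES3 fell in LS411N (-0.55, adjusted p = 0.018), a call made in 9 of 16 alternatives (adjusted p = 8.6e-06 to 0.47). Both are known as retinoic acid receptor responders.

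The other aldehyde dehydrogenases were split. In LS411N-BR, 5 of 13 rose and 2 fell, where 56.1% of all genes rose and 11.1% fell, with a median of 0.07, below that of all genes. After rescaling 1 rose and 6 fell, where 32.3 and 32.2% of all genes did. With the spread of all 12 libraries 1 rose and 2 fell in LS411N-BR, where 4369 of 11322 genes rose and 722 fell. In LS411N, 3 of 13 rose and 0 fell, with a median of 0.06, where 9.75% of all genes rose and 3.43% fell. After rescaling 4 rose and 1 fell in LS411N, where 18.8 and 16% of all genes did. There 7 rose and 1 fell without replicate 3 of the group without DOX, where 53% of all genes rose. Leaving out each other library gave 0 to 2 rises, with 0 without replicate 3 of the group with DOX. With no filter 0 rose, where 583 of 19742 genes did. ALDH3A2, which oxidises fatty aldehydes, averaged 161 ± 11.8 TPM with DOX and 105 ± 4.21 TPM without it in LS411N-BR, and 122 ± 6.08 and 82.0 ± 16.6 TPM in LS411N (log2 fold changes 0.61 and 0.59, adjusted p = 1.5e-21 and 0.0041). The LS411N call of ALDH3A2 was made in 13 of 17 alternatives (adjusted p = 4e-06 to 0.091). ALDH18A1, an enzyme of proline synthesis, rose in LS411N-BR (0.25), and ALDH3B1 rose in LS411N (0.48), in 13 of 16 alternatives. ALDH16A1 and ALDH3A1 fell in LS411N-BR (-0.57 and -0.38). In LS411N, ALDH3A1 was called higher instead (0.47, adjusted p = 0.018), in 10 of 17 alternatives.

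SOX9 and LRIG1 were the markers that fell in both lines. SOX9, on the plus strand at chr17:72121020-72126420, had 34.9, 32.5 and 34.1 TPM in LS411N-BR with DOX, against 56.8, 61.5 and 56.3 TPM without it. In LS411N it had 56.9, 54.7 and 54.3 TPM with DOX, against 78.1, 85.3 and 80.9 TPM without it. The groups were apart in both lines, and as deposited SOX9 was the marker for which replicate 3 of LS411N without DOX did not stand out. On the scale without short RNA genes that replicate was the lowest of its group for SOX9, at 153 TPM against 187 and 203 TPM. The mean fell by 41.8% in LS411N-BR (log2 fold change -0.76 ± 0.06 SE, adjusted p = 1.2e-31) and fell by 32.1% in LS411N (-0.55 ± 0.14 SE, adjusted p = 0.0046). Only 1.07 and 1.78% of the genes tested had a smaller log2 fold change in these lines. Rescaling gave -0.97 and -0.62. In LS411N the call was lost without replicate 2 or replicate 3 of the group with DOX (adjusted p = 0.072 and 0.062), and over all 17 alternatives it ranged from 3.1e-06 to 0.072.

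LRIG1, on the minus strand at chr3:66378797-66501263, had 19.9, 17.7 and 17.8 TPM in LS411N-BR with DOX, against 28.2, 30.4 and 28.3 TPM without it. Its LS411N values were 16.7, 17.4 and 15.2 TPM with DOX, against 27.9, 27.6 and 40.6 TPM without it. The groups did not overlap, and the LS411N group without DOX was spread by its replicate 3. The mean fell by 36.3% in LS411N-BR (-0.62 ± 0.07 SE, adjusted p = 1.9e-20) and fell by 48.7% in LS411N (-0.90 ± 0.15 SE, adjusted p = 1.1e-05). Without replicate 3 of LS411N without DOX the log2 fold change there was -0.72 (adjusted p = 6.4e-06), and LRIG1 was called in all 16 alternatives in LS411N-BR and all 17 in LS411N. SLC25A26 overlaps LRIG1 on the opposite strand, at up to 5.65 TPM, and the labels do not say how reads were assigned to strands.

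Around SOX9, other SOX factors and genes above or below it were split. In LS411N-BR, 4 of 11 rose and 4 fell, with a median of 0.10, where 56.1% of all genes rose and 11.1% fell. After rescaling 4 rose and 6 fell, where 32.3 and 32.2% of all genes did. In LS411N 3 of 11 rose and 3 fell, with a median of -0.05, where 9.75% of all genes rose and 3.43% fell. After rescaling 3 rose and 4 fell, where 18.8 and 16% of all genes did. In LS411N 5 rose and 3 fell without replicate 3 of the group without DOX, where 53% of all genes rose. Leaving out each other library there gave 1 or 2 rises and 3 falls, and 1 rise, KRT20, without replicate 1 of the group without DOX or any 1 library with DOX. KRT20, a keratin of the upper crypt, averaged 145 ± 10.3 TPM in LS411N-BR with DOX and 24.7 ± 1.82 TPM without it, and 17.3 ± 0.921 and 3.64 ± 1.21 TPM in LS411N. CEACAM1, an adhesion protein, averaged 33.4 ± 1.32 TPM with DOX and 10.1 ± 0.270 TPM without it in LS411N-BR. TCF7L2, the WNT effector, was called higher in LS411N (log2 fold change 0.48, adjusted p = 0.012), but in 12 of 17 alternatives only (adjusted p = 7.4e-05 to 0.13). SOX4, another SOX factor, fell in LS411N-BR (-0.44) and SOX8 fell in LS411N (-0.68). The kinase gene PRKCA fell in both (-0.38 and -0.67).

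Beside LRIG1, the LRIG family and the ERBB receptors with their regulators gave 1 call in LS411N, near the share over all genes. There 1 of 13 rose and 0 fell, with a median of -0.02, where 9.75% of all genes rose and 3.43% fell. After rescaling 1 rose and 3 fell, where 18.8 and 16% of all genes did. Of the 13, 6 rose without replicate 3 of the group without DOX, where 53% of all genes did, and leaving out each other library left 0 called. With no filter 0 were called too, where 583 of 19742 genes rose and 223 fell. In LS411N-BR 6 of 13 rose and 1 fell, with a median of 0.07, where 56.1% of all genes rose and 11.1% fell. After rescaling 4 rose and 7 fell there, where 32.3 and 32.2% of all genes did. MET, the receptor of hepatocyte growth factor, was called higher in both lines, at 163 ± 4.85 TPM with DOX, against 112 ± 2.59 TPM without it, in LS411N-BR, and at 105 ± 3.84 TPM, against 74.9 ± 17.9 TPM, in LS411N. It was the 1 call of the list in LS411N (adjusted p = 0.019), made in 10 of 17 alternatives (adjusted p = 4.3e-06 to 0.18), and in all 16 in LS411N-BR. The ubiquitin ligase gene CBL rose in LS411N-BR (0.44), and its relative CBLB fell (-0.34).

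Among the surface markers, CD44, the receptor for hyaluronan, had a higher mean with DOX in both lines. It lies on the plus strand at chr11:35138870-35232402. It had 206, 187 and 200 TPM in LS411N-BR with DOX, against 161, 169 and 162 TPM without it, and the groups did not overlap. The values in LS411N were 147, 148 and 137 TPM with DOX, against 96.0, 100 and 130 TPM without it, and the highest library without DOX, replicate 3, lay just under the lowest with DOX. In LS411N-BR the log2 fold change of 0.26 ± 0.06 (SE, adjusted p = 4.5e-05) lay 0.08 above the median of all genes, and rescaling ended the call (0.06, adjusted p = 0.12). In LS411N it was 0.41 ± 0.15 and missed the threshold (adjusted p = 0.055). It passed there after rescaling (0.34, adjusted p = 0.00067) and without replicate 3 of the group without DOX (0.55, adjusted p = 2.8e-05). Over the alternatives the adjusted p ranged from 5.7e-06 to 0.12 in LS411N-BR, where 15 of 16 passed, and from 2.8e-05 to 0.32 in LS411N, where 9 of 17 did. These values are per gene, so the splice variants of CD44 are summed.

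Of hyaluronan enzymes and partners of CD44, 13 of 18 tested rose in LS411N-BR and 4 fell, with a median of 0.31, where 56.1% of all genes rose and 11.1% fell. After rescaling 9 rose and 5 fell, where 32.3 and 32.2% of all genes did. In LS411N 4 of 19 rose and 0 fell, with a median of 0.20, where 9.75% of all genes rose and 3.43% fell. After rescaling 6 rose and 5 fell there, where 18.8 and 16% of all genes did. The counts were 13 and 1 without replicate 3 of the group without DOX, where 53% of all genes rose and 6.32% fell, and leaving out each other library gave 3 or 4 rises. MMP7, a matrix protease, averaged 6.21 ± 0.409 TPM with DOX and 1.64 ± 0.262 TPM without it in LS411N-BR, and 6.83 ± 0.808 and 2.52 ± 0.929 TPM in LS411N. HAS3, a hyaluronan synthase, rose in LS411N (log2 fold change 1.12, adjusted p = 2.4e-09), and TMEM2, a hyaluronidase of the cell surface, in LS411N-BR (1.11, adjusted p = 6.7e-63). SLC7A11, the cystine transporter that a CD44 variant is known to hold at the membrane, fell in LS411N-BR (-0.72), as did HMMR, another hyaluronan receptor (-0.31).

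CD24 and PROM1 were higher with DOX in LS411N-BR and had lower means with DOX in LS411N. CD24, a small glycoprotein anchored by a lipid, lies on the minus strand at chr6:106969831-106975627. It had 209, 190 and 213 TPM in LS411N-BR with DOX, against 159, 159 and 161 TPM without it, with no overlap. In LS411N it had 201, 211 and 204 TPM with DOX, against 218, 210 and 295 TPM without it, and the ranges overlapped. The log2 fold change was 0.35 ± 0.06 (SE, adjusted p = 5.1e-08) in LS411N-BR and 0.14 there after rescaling (adjusted p = 0.015). In LS411N it was -0.21 ± 0.15 (adjusted p = 0.41), and -0.29 after rescaling (adjusted p = 0.0049). Without replicate 3 of LS411N without DOX it was -0.06 (adjusted p = 0.41). CD24 passed in 16 of 16 alternatives in LS411N-BR and in 3 of 17 in LS411N, where the adjusted p ranged from 0.003 to 0.70. CD24 has near-identical copies in the human genome, so its level is uncertain where reads were shared among them.

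PROM1 encodes a glycoprotein of membrane protrusions and lies on the minus strand at chr4:15963076-16084378. It had 25.8, 22.2 and 24.5 TPM in LS411N-BR with DOX, against 19.7, 22.4 and 20.6 TPM without it, and the ranges overlapped. Its LS411N values were 28.0, 29.6 and 26.9 TPM with DOX, against 33.4, 33.7 and 48.4 TPM without it, and every library with DOX was lower. The call in LS411N-BR (0.20 ± 0.07 SE, adjusted p = 0.0041) lay 0.02 above the median of all genes and was lost after rescaling (-0.00054, adjusted p = 0.99). Leaving out replicate 1 of LS411N-BR without DOX also ended it (adjusted p = 0.059). In LS411N the log2 fold change was -0.42 ± 0.15 and just missed the threshold (adjusted p = 0.051). It passed after rescaling (-0.49, adjusted p = 0.00037) and without replicate 3 of the group without DOX (-0.25, adjusted p = 0.0037). PROM1 passed in 11 of 16 alternatives in LS411N-BR (adjusted p = 4e-04 to 0.99) and in 11 of 17 in LS411N (5.6e-05 to 0.29).

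ALCAM, an adhesion protein of the immunoglobulin superfamily, was called in neither line as deposited. It lies on the plus strand at chr3:105366909-105576900. It had 19.0, 18.0 and 18.8 TPM in LS411N-BR with DOX, against 18.3, 20.4 and 19.0 TPM without it. The values in LS411N were 12, 12.7 and 12.2 TPM with DOX, against 11, 11.3 and 18.4 TPM without it. The ranges overlapped in both lines. The log2 fold change was -0.04 ± 0.07 (SE, adjusted p = 0.59) in LS411N-BR and -0.10 ± 0.15 (adjusted p = 0.76) in LS411N. After rescaling ALCAM was lower in LS411N-BR (-0.24, adjusted p = 9e-05). In LS411N its sign turned without replicate 3 of the group without DOX (0.13, adjusted p = 0.063). ALCAM passed in 2 of 16 alternatives in LS411N-BR (adjusted p = 9e-05 to 0.99) and in 0 of 17 in LS411N (0.063 to 0.91).

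Relatives, partners and ligands of prominin, ALCAM and CD24 rose for 7 of 11 tested and fell for 2 in LS411N-BR, with a median of 0.24, near the 56.1 and 11.1% of all genes that did. After rescaling 3 rose and 3 fell, where 32.3 and 32.2% of all genes did. With the spread of all 12 libraries 4 rose and 1 fell, where 4369 of 11322 genes rose and 722 fell. In LS411N 4 of 12 rose and 0 fell, with a median of 0.06, where 9.75% of all genes rose and 3.43% fell. After rescaling 5 rose and 2 fell there, where 18.8 and 16% of all genes did. The counts were 6 and 1 without replicate 3 of the group without DOX, where 53% of all genes rose. Leaving out each other library gave 2 rises, and no filter gave 1, where 583 of 19742 genes rose. CD55, a complement regulator anchored like CD24, averaged 89.3 ± 6.24 TPM with DOX and 24.6 ± 0.682 TPM without it in LS411N-BR, and 43.2 ± 2.33 and 13.9 ± 2.99 TPM in LS411N. CD59, another complement regulator, rose in LS411N-BR (log2 fold change 0.77), and the fucosyltransferase gene FUT4 rose in LS411N (0.64). The integrin gene ITGA6 fell in LS411N-BR (-0.45), with FUT8 (-0.19).

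**Figure D3:**
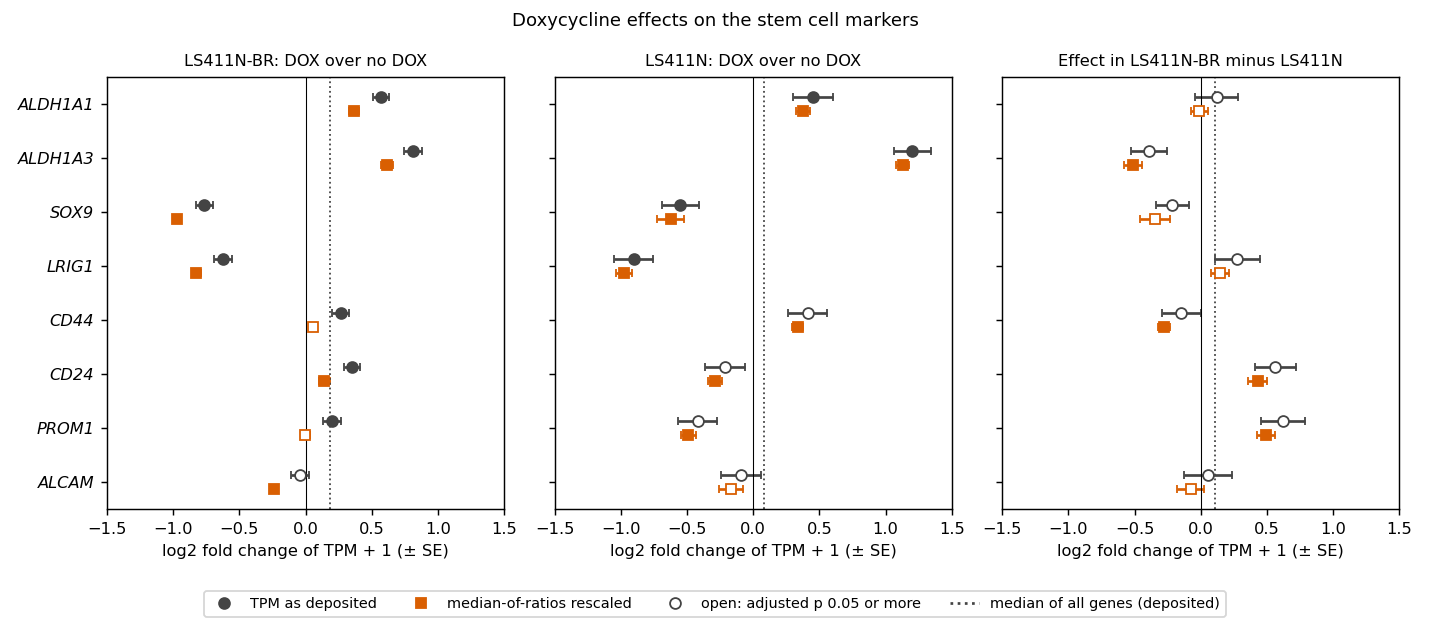
Log2 fold change of TPM + 1, DOX over no DOX, for each marker in LS411N-BR (left) and LS411N (middle), and the effect in LS411N-BR minus that in LS411N (right), with SE as whiskers. Circles are TPM as deposited, squares are values after median-of-ratios rescaling, filled symbols have an adjusted p under 0.05 and the dotted line is the median of all genes as deposited. ALDH1A1, ALDH1A3, SOX9 and LRIG1 are filled in both lines under both scalings, and in the right panel 0 circles and 4 squares are filled.

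Whether a marker answered DOX differently in the lines was tested as the difference of its log2 fold changes, LS411N-BR minus LS411N, in a limma fit over all 12 libraries. As deposited, 0 of the 8 markers were called, where 2.12% of 11674 genes were (1.39% above 0 and 0.728% below). At an unadjusted p under 0.05, 3 markers passed, ALDH1A3, PROM1 and CD24, where 13% of all genes did. PROM1 differed by 0.62 ± 0.17 (SE, adjusted p = 0.057), CD24 by 0.56 ± 0.16 (adjusted p = 0.065) and ALDH1A3 by -0.39 ± 0.14 (adjusted p = 0.19). After rescaling 4 markers were called, where 10.8% of all genes were (4.39% above 0 and 6.43% below). They were PROM1 (0.49, adjusted p = 0.00057) and CD24 (0.43, adjusted p = 0.0021) above 0, and ALDH1A3 (-0.51, adjusted p = 0.00035) and CD44 (-0.28, adjusted p = 0.0019) below it. These 4 were also called without replicate 3 of LS411N without DOX, where 9.1% of all genes were (4% above 0 and 5.1% below), at adjusted p = 0.0029, 0.0018, 0.00022 and 0.031. The adjusted p ranged from 0.00018 to 0.21 for PROM1, from 0.0015 to 0.21 for CD24, from 0.00071 to 0.89 for CD44 and from 0.00022 to 0.47 for ALDH1A3 over the 22 alternatives, with the sign kept in all of them. For ALDH1A1, SOX9 and LRIG1 the difference was 0.12 ± 0.16, -0.21 ± 0.12 and 0.28 ± 0.17 (SE, adjusted p = 0.78, 0.50 and 0.51), which does not show that the lines answered alike.

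**Figure D4:**
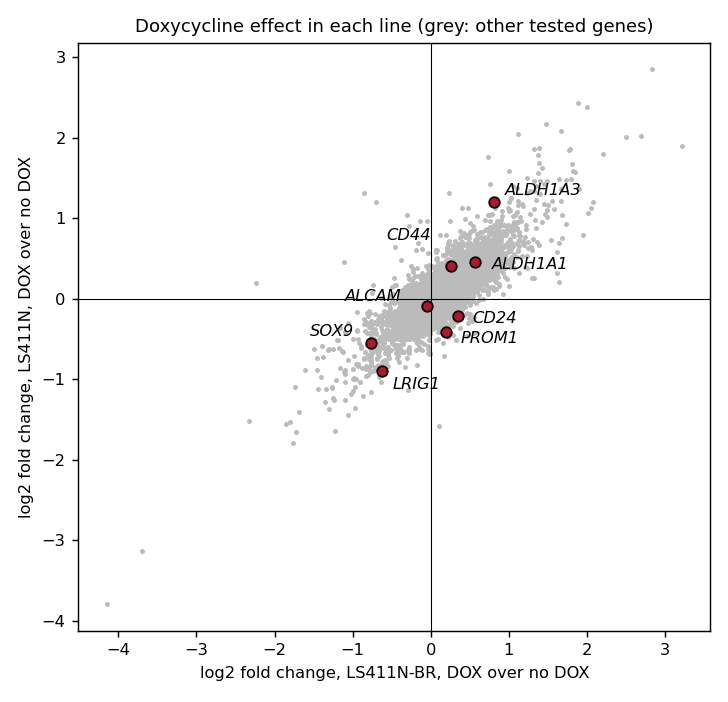
Log2 fold change of TPM + 1, DOX over no DOX, in LS411N-BR (horizontal) and LS411N (vertical), with the stem cell markers in red and all other genes tested in both lines in grey. ALDH1A3, ALDH1A1 and CD44 lie in the upper right, SOX9, LRIG1 and ALCAM in the lower left, and CD24 and PROM1 in the lower right, at 0.35 and 0.20 in LS411N-BR and at -0.21 and -0.42 in LS411N.

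The levels of the lines were set side by side without a test, because the tables were scaled separately. For this the TPM were rescaled over the 25540 genes that both list. These genes held 76.1 to 80.3% of the TPM in the LS411N libraries and 100% in those of LS411N-BR. The rescaling thus raised the LS411N levels and left those of LS411N-BR as they were. ALDH1A3 was then highest in LS411N with DOX (54.6 ± 1.86 TPM), followed by LS411N without DOX (23.1 ± 2.80), LS411N-BR with DOX (15.9 ± 0.566) and LS411N-BR without DOX (8.62 ± 0.113), and no neighbours in that order overlapped. The middle groups did overlap as deposited, at 16.3 to 21.1 TPM in LS411N without DOX and 15.4 to 16.5 TPM in LS411N-BR with DOX. SOX9 was highest in LS411N without DOX (104 ± 6.10), then in LS411N with DOX (70.6 ± 0.974), LS411N-BR without DOX (58.2 ± 2.89) and LS411N-BR with DOX (33.9 ± 1.22), also without overlap. The middle of this SOX9 order held on this scale only. LS411N-BR without DOX had a higher mean than LS411N with DOX as deposited (58.2 against 55.3 TPM). The same held without short RNA genes (125 against 120 TPM), and the ranges overlapped in each case. LRIG1 ordered by DOX before line, with LS411N without DOX first (40.8 ± 8.50), then LS411N-BR without DOX (29 ± 1.26), LS411N with DOX (21.0 ± 1.00) and LS411N-BR with DOX (18.5 ± 1.23). CD24 ran from LS411N without DOX (307 ± 53.0) over LS411N with DOX (262 ± 9.91) and LS411N-BR with DOX (204 ± 12.3) to LS411N-BR without DOX (160 ± 1.53), and no neighbours overlapped on this scale. As deposited, CD24 in LS411N with DOX (201 to 211 TPM) overlapped with LS411N without DOX (210 to 295 TPM) and with LS411N-BR with DOX (190 to 213 TPM).

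For the other markers some neighbours could not be told apart by their ranges on the scale of the shared genes either. PROM1 was highest in LS411N without DOX (49.1 ± 9.80) and then LS411N with DOX (35.9 ± 1.45), while LS411N-BR with DOX (24.2 ± 1.84) and without it (20.9 ± 1.35) overlapped. ALDH1A1 was highest in LS411N with DOX (334 ± 7.62) and lowest in LS411N-BR without DOX (164 ± 14.5), and LS411N without DOX (247 ± 45.4) and LS411N-BR with DOX (243 ± 10.4) overlapped between them. CD44 had its own highest mean in LS411N-BR with DOX (198 ± 9.56), which overlapped with LS411N with DOX (184 ± 3.90), and LS411N-BR without DOX (164 ± 4.30) overlapped with LS411N without DOX (139 ± 20.9). For ALCAM all neighbours overlapped, from 19.2 ± 1.05 TPM in LS411N-BR without DOX to 15.7 ± 0.663 TPM in LS411N with DOX. The 2 groups with DOX are not neighbours in that order, and ALCAM was higher in LS411N-BR there, with ranges apart. That log2 ratio was 0.25 on this scale, 0.60 as deposited and 0.47 without short RNA genes, with ranges apart in each. Without DOX the ranges of the lines overlapped on this scale and as deposited, but not without short RNA genes.

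ALDH1A3, PROM1 and SOX9 were lower in LS411N-BR than in LS411N, with ranges apart, with and without DOX and under all 3 scalings compared. ALDH1A3 had log2 ratios of -1.78 with DOX and -1.42 without it after rescaling over shared genes, and of -1.43 and -1.07 as deposited. SOX9 had log2 ratios of -1.06 with DOX and -0.84 without it, and PROM1 of -0.57 and -1.23. CD44 had ratios of 0.11 and 0.24 with overlapping ranges on the shared scale, but 0.46 and 0.59 with ranges apart as deposited. CD24 with DOX had a ratio of -0.36 with ranges apart on the shared scale. Its ranges with DOX overlapped as deposited (-0.01) and without short RNA genes (-0.14). ALDH1A1 had ratios of -0.46 with DOX and -0.59 without it on the shared scale, with ranges apart, but -0.11 and -0.24 with overlapping ranges as deposited. LRIG1 with DOX turned its sign, at -0.18 on the shared scale and 0.17 as deposited.

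**Figure D5:**
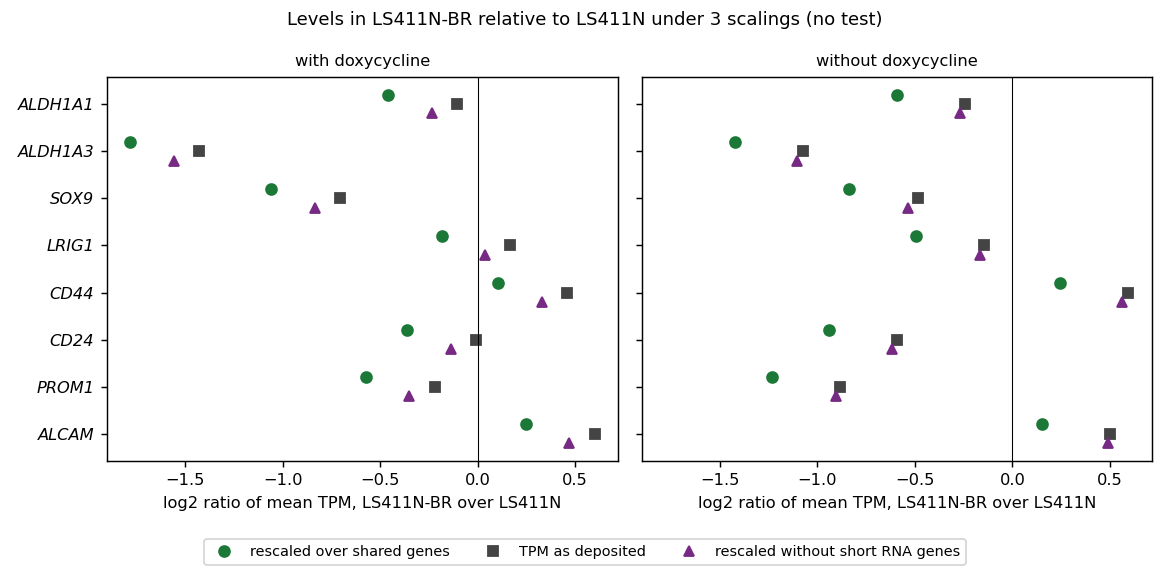
Log2 ratio of mean TPM, LS411N-BR over LS411N, for each marker with DOX (left) and without it (right) under 3 scalings, with no test. Circles are values rescaled over the genes both tables list, squares are TPM as deposited and triangles are values rescaled without short RNA genes. ALDH1A3, SOX9 and PROM1 lie left of 0 in both panels under all 3 scalings, and LRIG1 with DOX lies on both sides of 0.

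Genes most like each marker were found by the Euclidean distance between profiles of log2(TPM + 1) over the 12 libraries, each profile centred within its line, among 10935 genes tested in both lines. These libraries share their scaling, so a small distance describes a pattern and no more. For ALDH1A1 the nearest were PHKA1 (0.0926) and PANK3 (0.121), against a median distance of 0.759, and for CD44 they were SERINC5 (0.0985) and PRNP (0.121), against 0.560. For ALDH1A3 they were SLC9A2 (0.256) and SERPINB5 (0.305), against 1.61. For SOX9 they were RHNO1 (0.221) and GPA33 (0.259), against 1.45, and for LRIG1 NT5DC3 (0.205) and UBA6 (0.224), against 1.59. For PROM1 they were MED13 (0.145) and TNS3 (0.191), for CD24 UTP20 (0.167) and SLC17A5 (0.178), and for ALCAM STAG1 (0.107) and SLX4IP (0.128). Among the markers themselves, PROM1 and CD24 were nearest to each other (0.357), as were ALDH1A1 and CD44 (0.416), and SOX9 and LRIG1 (0.667). GPA33, the colon epithelial antigen A33, averaged 43.6 ± 0.917 TPM in LS411N-BR with DOX and 74.4 ± 3.04 TPM without it, and 6.53 ± 0.345 and 10.2 ± 1.24 TPM in LS411N.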

How the data were processed

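RNA of 12 libraries, from kit-purified total RNA and TruSeq Stranded mRNA preparation per the labels' protocols, was deposited by the authors as TPM per gene in 2 tables, 1 per line. Each library sums to 1000000 TPM over the genes of its own table. Per the submitters' processing notes, STAR, DESeq2 and the build GRCh38 were used, for unnamed steps. The counting, the annotation and the TPM program are not given. Read totals are not given either, so depth is unknown and no counting interval is given.

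The 8 markers, the gene lists and the alternatives were chosen with earlier results of these data known. Per line, limma 3.58.1 in R 4.3.3 (lmFit, eBayes with trend, two-sided) was run on log2(TPM + 1) for genes at 1 TPM or more in at least 3 libraries, with Benjamini-Hochberg adjustment over all genes and calls under 0.05. Fold changes on this scale are smaller than those of the TPM themselves for low genes. The difference between lines was the interaction term over all 12 libraries. In LS411N-BR as deposited the fitted prior degrees of freedom were infinite. The p-values there thus rest on a spread fitted over all genes, not on each gene's own spread between replicates, and are very small. Fits were tested on simulated data: changes of 2-fold and 1.5-fold were recovered for 100 and 98% of genes in LS411N-BR, 91 and 52% in LS411N, and 97 and 49% for the difference, with 2.94, 4.67 and 5.19% false calls. The simulated noise was drawn for each gene on its own, and only genes above 5 TPM without DOX were changed. Shifts common to a whole library, as in replicate 3 of LS411N without DOX, were not simulated, so these rates do not cover them.

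From each list, the text names up to 2 genes per direction and line with the smallest adjusted p, and for each marker the 2 genes nearest in pattern. Lists are given by counts and medians, with no set test. Alternatives were a pseudocount of 0.1 TPM, no filter or one of 5 TPM, median-of-ratios rescaling, rescaling over shared genes or without 205 short RNA genes, no trend, robust moderation, a replicate block, the spread of all 12 libraries, and leaving out each library. Rescaling together with leaving out replicate 3 of LS411N without DOX and an ALDH1A3 to ALDH1A1 ratio with no pseudocount were added after seeing the data. Deviations of same-numbered libraries across DOX had correlations of 0.023, 0.00307 and 0.00837 in LS411N-BR, and of 0.0294, 0.00622 and 0.173 in LS411N. So few values neither show nor exclude a pairing. Positions are from GENCODE 29 and promoter bases from RefSeq (GRCh38.p14), which had entries for 7 of the 8 markers.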

Additional observations from a re-analysis of the deposited data

How the results depend on the processing

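ALDH1A1, ALDH1A3, SOX9 and LRIG1 kept their direction in every alternative run in both lines, and in LS411N-BR and for ALDH1A3 and LRIG1 in LS411N also their calls. In LS411N, of 4 markers called (2 higher, 2 lower) and 1487 genes, 7 markers were called after median-of-ratios rescaling and without short RNA genes (4 of them lower in each), with 3926 and 4081 genes. With no filter 1 marker was higher and 806 genes were called, and with the spread of all 12 libraries 2637 genes. A replicate block left 2 markers (1 higher, 1 lower) and 900 genes in LS411N, with ALDH1A1 and SOX9 at adjusted p = 0.18 and 0.06, and changed no marker call in LS411N-BR. The labels do not say whether replicate numbers pair these libraries. Leaving out 1 library, in 1 case with rescaling too, gave 2 to 7 markers called (1 to 3 higher, 1 to 4 lower) and 624 to 6637 genes in LS411N, the highest without replicate 3 of the group without DOX (5271 with rescaling as well), and 4 to 5 markers higher in LS411N-BR. Rescaling left 3 markers higher in LS411N-BR, with PROM1 at -0.00054. It moved the share of calls that were higher to 50.1%, against 83.5% as deposited, in LS411N-BR, to 54.1% against 74.0% in LS411N, and to 40.6% against 65.6% for the difference.

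For the difference between lines, with 0 markers and 247 genes called, rescaling gave 4 markers (2 above 0, 2 below) and 1262 genes, and leaving out short RNA genes 4 (2 and 2) and 1004. Rescaling over shared genes gave 2 above 0, and the 5 TPM filter, robust moderation and the replicate block gave 1 above 0 each (PROM1). The 5 TPM filter called 140 genes and a pseudocount of 0.1 TPM called 109. Leaving out 1 library, in 1 case with rescaling too, gave 0 to 6 markers (0 to 2 above 0, 0 to 4 below) and 125 to 1058 genes, and 2374 with rescaling as well. Signs turned for ALDH1A1 after rescaling (-0.013), on leaving out 1 library (-0.0436 to 0.205) and with both (-0.0527), and for ALCAM under the same settings (-0.0771, -0.173 to 0.176 and -0.187) and without short RNA genes (-0.0309). The ALCAM fold change in LS411N ran from -0.218 to 0.131 on leaving out 1 library, and the 0.131, like the lowest values of the differences, came without replicate 3 of the group without DOX. The LRIG1 level in LS411N-BR over LS411N with DOX was -0.18 over shared genes, 0.168 as deposited and 0.0394 without short RNA genes. The cause of these changes was not tested.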

Other observations

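Other stem cell markers of intestine and colon cancer were split in the same libraries. In LS411N-BR 6 of 14 tested rose and 6 fell, with a median log2 fold change of 0.08. After rescaling 4 rose and 8 fell there, where 32.3 and 32.2% of all genes did. In LS411N 4 of 15 rose and 7 fell, with a median of -0.06, where 9.75% of all genes rose and 3.43% fell. The LS411N counts were 5 and 7 after rescaling, where 18.8 and 16% of all genes were called. They were 6 and 7 without replicate 3 of the group without DOX, where 53 and 6.32% of all genes were. SMOC2 reached 1 TPM in LS411N-BR in libraries without DOX only and so passed the filter through that group, and without it 6 of 13 rose there and 5 fell, where 56.1% of all genes rose and 11.1% fell. SMOC2, a marker of crypt base cells, averaged 0.783 ± 0.165 TPM with DOX and 30.5 ± 2.81 TPM without it in LS411N-BR, and 5.85 ± 0.155 and 94.3 ± 9.64 TPM in LS411N (SD, n = 3 each). OLFM4, a glycoprotein of crypt base cells, fell in LS411N-BR to 3.22 ± 0.228 TPM with DOX, against 20.1 ± 2.33 TPM without it. The chemokine receptor gene CXCR4 averaged 1.57 ± 0.154 TPM in LS411N with DOX and 9.92 ± 0.577 TPM without it. KLF4, a transcription factor of differentiated colonocytes that is also used in reprogramming, rose to 84.0 ± 3.94 TPM with DOX, against 28.1 ± 1.82 TPM without it, in LS411N-BR, and to 52.3 ± 3.45 TPM, against 22.1 ± 3.24 TPM, in LS411N. DPP4 (CD26), a peptidase of the brush border also used as a stem cell marker, averaged 118 ± 6.24 TPM with DOX and 53.6 ± 2.43 TPM without it in LS411N-BR, and 35.1 ± 1.60 and 15.6 ± 5.17 TPM in LS411N.

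Colonocyte differentiation genes rose in the libraries in which SOX9 and LRIG1 fell. In LS411N-BR 15 of 17 tested rose and 1, the trefoil factor gene TFF3, fell, with a median of 1.18. Of these, SLC26A3 and ALPI reached 1 TPM in libraries with DOX only and TFF3 in libraries without DOX only, so that each passed the filter through the group in which it was high. Without these 3 genes 13 of 14 rose and 0 fell, where 56.1% of all genes rose and 11.1% fell. After rescaling 14 of 17 rose and 2 fell, where 32.3 and 32.2% of all genes did. In LS411N 9 of 13 rose and 0 fell, with a median of 0.98, where 9.75% of all genes rose. Rescaling gave 9 and 0 there, where 18.8 and 16% of all genes rose and fell. There were 12 rises without replicate 3 of the group without DOX, where 53% of all genes did, and leaving out each other library gave 9. FABP1, which carries fatty acids in absorptive cells, averaged 167 ± 17.1 TPM with DOX and 41.0 ± 3.03 TPM without it in LS411N-BR, and 39.1 ± 4.03 and 6.84 ± 2.19 TPM in LS411N.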
